A study of Drosophila melanogaster with 4 samples.

Results

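The Hox gene complexes of Drosophila melanogaster are a pair of gene clusters on chromosome arm 3R, examined here for dimethylation of lysine 36 of histone H3 (H3K36me2) in adult heads. The 8 Hox genes were lab, pb, Dfd, Scr and Antp of the Antennapedia complex and Ubx, abd-A and Abd-B of the bithorax complex. The complexes were taken as intervals of the FlyBase release 5 genome, 3R 2480000 to 2830000 for the Antennapedia complex and 3R 12480000 to 12810000 for the bithorax complex, each with 350 kb on either side as flanks. Of 6161 enriched regions in the replicate 1 list, 4 touched the intervals. The list of replicate 2 had 6 of 6078 there, and that of the replicate set 6 of 6411. The complexes were chosen by their covered share and gaps in these same lists, so shares, gaps and ranks are a description and were not tested.

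Chromatin was immunoprecipitated with an H3K36me2 antibody from head nuclei of wild-type Oregon-R flies, labelled as mixed adults, and sequenced in 2 ChIP samples. A further 2 samples were input DNA, each paired by its label with 1 ChIP list. Heads were isolated with sieves from flies of population cages, so a sample pools many animals and all cell types of the head, and the labelled tissue could not be checked against marker genes, which the lists do not name. Nothing in the labels states that the replicates were separate collections of flies, so the spread between them may be technical.

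Hox genes encode homeodomain transcription factors that give body segments their identity, and their order along the chromosome follows the order of the body parts they specify. Where they are not used, they are held silent by Polycomb group proteins, which mark their chromatin with methylation of lysine 27 of histone H3. Methylation of lysine 36 is found in transcribed chromatin, and the methyltransferase Ash1, a trithorax group protein that helps keep Hox genes active, deposits the dimethyl form. Neither lysine 27 methylation nor transcription was measured here.

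In the Antennapedia complex, lab is the most anterior Hox gene and acts in the embryonic head and brain, pb specifies the adult mouthparts, and Dfd specifies the mandibular and maxillary segments. Scr acts in the labial segment and the anterior thorax, and Antp gives thoracic identity, its misexpression in the head turning antennae into legs. In the bithorax complex, Ubx specifies the posterior thorax and the haltere, abd-A the abdominal segments, and Abd-B the posterior abdomen and genitalia. The region lists name no genes, and the gene table used here describes release 6, so it served for gene names and order only. All 8 genes were in it, on 3R. It placed 14 other protein-coding genes between lab and Antp, among them 8 cuticle protein genes (Edg84A and the Ccp84A genes) between lab and pb. Between pb and Dfd were zen2, CG34297, zen, which acts in the dorsal embryo, bcd, the maternal determinant of the anterior pole, and Ama, which encodes a secreted protein of the immunoglobulin superfamily. The pair-rule gene ftz lay between Scr and Antp. Between Ubx and Abd-B it placed 3 other protein-coding genes, CG31275 and Glut3 before abd-A and MSAmiP after it. Since genes were not placed on release 5, no region is assigned to a single gene.

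Both complexes were almost free of H3K36me2 regions. In the Antennapedia interval, regions of replicate 1 covered 2.52% of the length, those of replicate 2 covered 2.55% and those of the replicate set 2.61%, with a replicate mean of 2.53% ± 0.023 (SD, n = 2). In the bithorax interval the shares were 0.607%, 1.21% and 1.27% in the same order, with a replicate mean of 0.910% ± 0.43 (SD, n = 2). The shares of the whole arm were 25.5%, 25.1% and 27.8%. The Antennapedia interval thus had 0.100 ± 0.0019 (SD, n = 2) times the share of the arm, and the bithorax interval 0.036 ± 0.017 times. The covered sequence amounted to 8.81 and 8.93 kb of 350 kb in the Antennapedia interval and to 2.00 and 4.00 kb of 330 kb in the bithorax interval, in replicates 1 and 2. No read counts are in the lists, so depth is unknown, and sequence that reads could not be placed on was not separated from unmarked sequence. Patches of the mark shorter than the shortest region of 3R, which measured 1301 bp, 1304 bp and 1001 bp in the same order, may not appear.

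**Figure D1:**
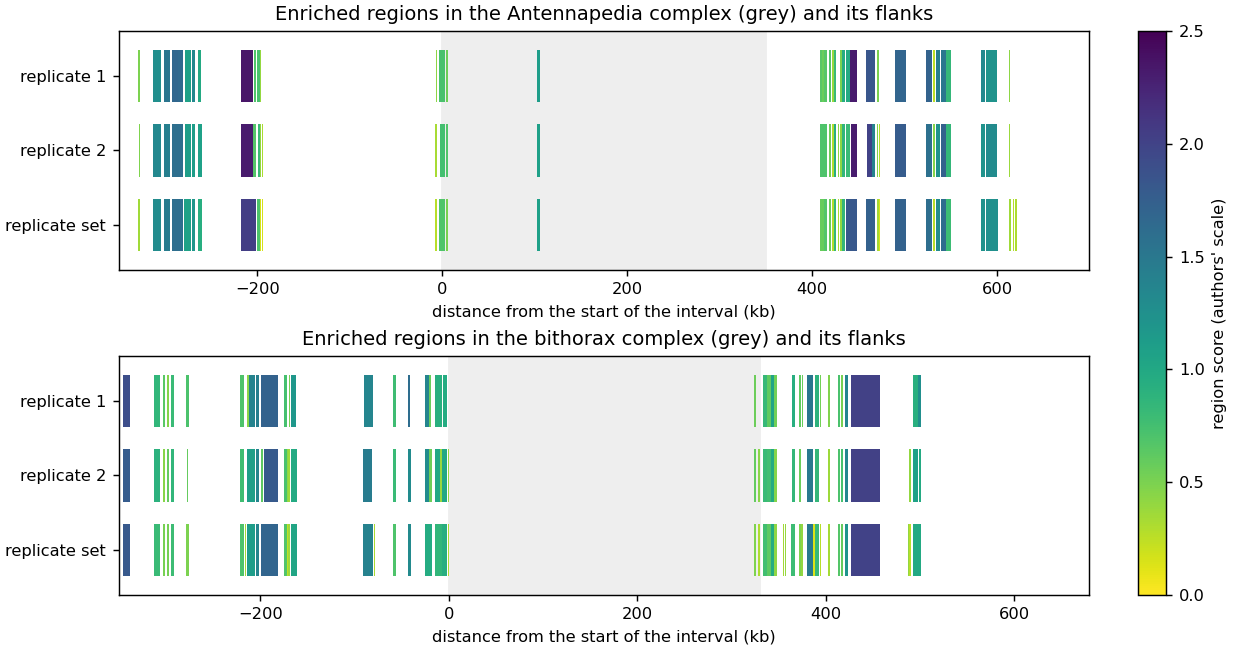
Enriched regions in each list, drawn as blocks against the distance in kb from the start of the Antennapedia interval (upper panel) and of the bithorax interval (lower panel). Grey marks the intervals, colour gives the region score on the authors' scale, and the interior of both intervals is empty in all 3 lists apart from 1 block in the Antennapedia complex.

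Taken over both 350 kb flanks together, the sequence around each complex was covered at about the level of the arm. Within the flanks coverage was uneven. In the mean of the replicates, the first steps of 50 kb left of the Antennapedia complex held 9.77%, 0%, 0% and 8.97%. On its right the first 50 kb held 0%. Beside the bithorax complex the first 50 kb held 44.1% on the left and 38.6% on the right, with empty steps further out. The flanks of the Antennapedia complex together were covered over 23.5% ± 0.40 (SD, n = 2), with 19.4% ± 0.22 on the left (lower coordinates) and 27.6% ± 0.58 on the right. Those of the bithorax complex were covered over 25.7% ± 0.18 (SD, n = 2), with 28.8% ± 0.53 on the left and 22.5% ± 0.18 on the right. The Antennapedia interval held 0.108 times and the bithorax interval 0.035 times the share of its own flanks. Regions also numbered fewer. In each replicate 3 regions touched the Antennapedia interval, or 0.857 per 100 kb, and 1 region in replicate 1 and 3 in replicate 2 touched the bithorax interval, or 0.303 and 0.909 per 100 kb. The arm held 4.89 regions per 100 kb in replicate 1 and 4.77 in replicate 2.

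**Figure D2:**
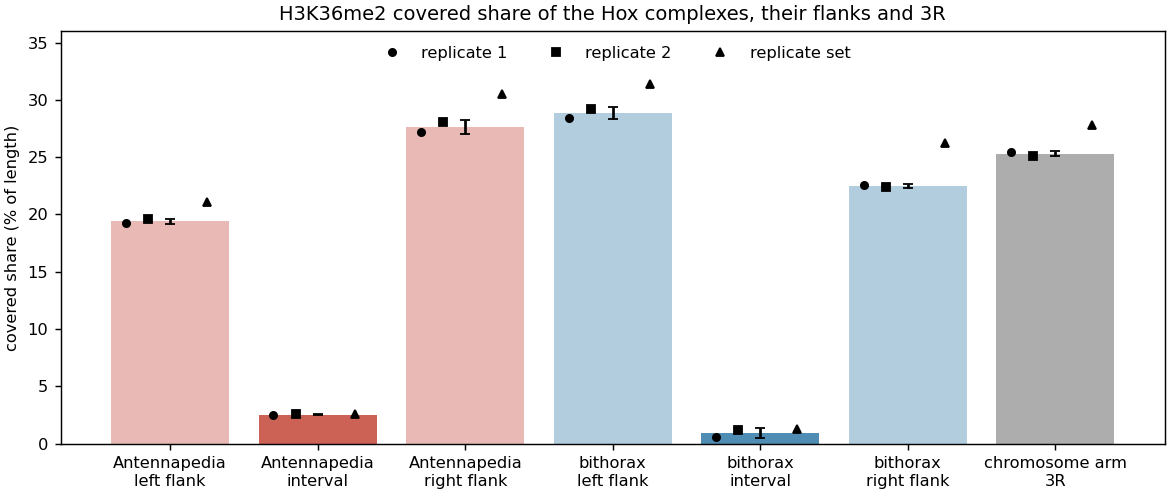
Covered share, in percent of length, of each interval, each 350 kb flank and the whole of 3R. Bars are the mean of the 2 replicates with the SD as error bar, and points are the lists; the intervals lie at 2.53% and 0.910%, and the flank means at 19.4% or more.

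To place these shares, windows of the same length were laid along 3R with starts every 10 kb, leaving out windows that touched either complex. Of 2618 windows of the length of the Antennapedia complex, 11 were covered no more than the complex in the mean of the replicates, or 0.42%. It was 11 windows in each replicate alone and 1 window, or 0.0382%, in the replicate-set list, and with windows laid end to end the share was 2.67%. Their median share was 23.9% and their highest 61.2%. Of 2624 windows of the length of the bithorax complex, 2 were covered no more than it, or 0.0762%, against a median of 24.0%. In replicate 1 alone no window was covered as little as the bithorax complex, and in replicate 2 alone 2 windows were. No window of either length was wholly without regions. Neighbouring windows overlap and are not independent, and the low shares entered the choice of the intervals, so nothing further is read from these percentages. The windows covered as little as the Antennapedia complex lay in 2 stretches, 9 windows in 3R 1720001 to 2150001, to the left of that complex, and 2 windows in 3R 23800001 to 24160001. The 2 windows covered as little as the bithorax complex lay within the second of these stretches.

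**Figure D3:**
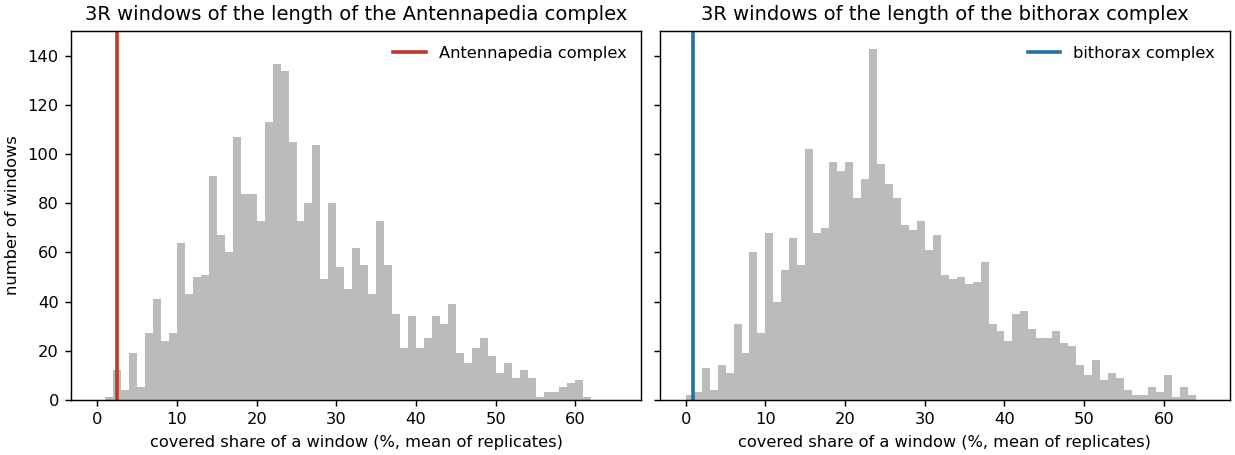
Number of 3R windows by covered share (percent, mean of the 2 replicates), for windows of the length of the Antennapedia complex (left) and of the bithorax complex (right). The coloured lines mark the complexes at 2.53% and 0.910%, at the lower end of distributions with medians of 23.9% and 24.0%.

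In bins of 10 kb, 33 of 35 bins of the Antennapedia interval and 31 of 33 bins of the bithorax interval had no enriched base in any of the 3 lists. Elsewhere on 3R this held for 1359 of 2722 bins, or 49.9%.

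The longest stretches of 3R without H3K36me2 regions overlapped the Hox complexes. In the bithorax complex a single gap, the distance between consecutive regions, measured 326 kb in replicate 1 (3R 12478453 to 12804412) and 324 kb in replicate 2 (3R 12480616 to 12804290). It was the longest gap of 3R in every list and filled 98.3% of the interval in replicate 1 and 98.1% in replicate 2. In the Antennapedia complex the longest gap measured 302 kb in all 3 lists (3R 2585803 to 2888168 in replicate 1 and 2585805 to 2888193 in replicate 2), and it ranked 2 on 3R in each. It held 69.8% of the interval and ran 58.2 kb past its end in both replicates. The gap ranked 3 on 3R, outside the complexes, was 262 kb in each list. Over the 5 large arms the bithorax gap ranked 5 and the Antennapedia gap 8 in both replicates, among 5794 gaps in replicate 1 and 5705 in replicate 2. The median gap of 3R was 2.56 kb in replicate 1 and 2.66 kb in replicate 2.

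**Figure D4:**
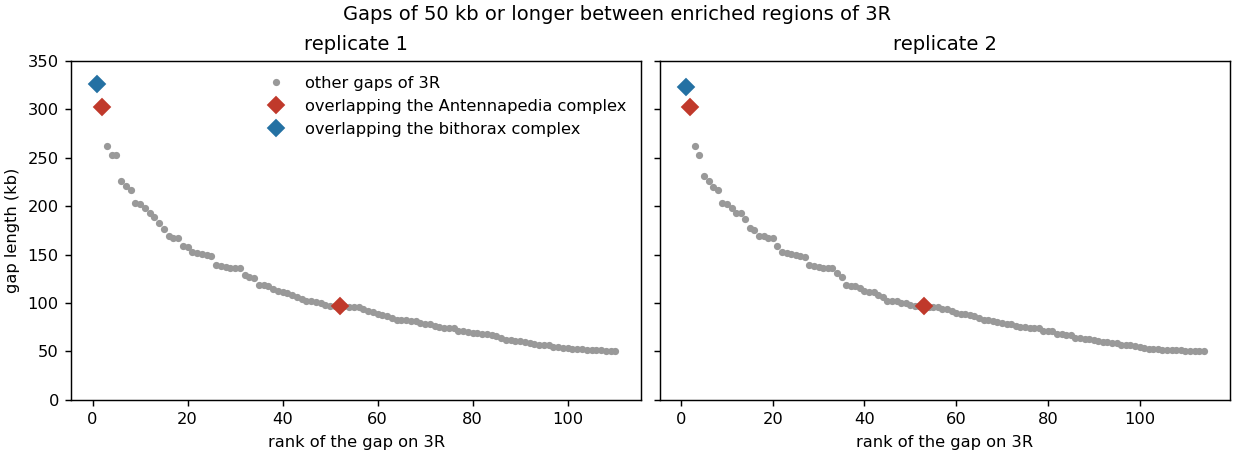
Length in kb of each gap of 50 kb or longer between enriched regions of 3R, against its rank on the arm, in replicate 1 (left) and replicate 2 (right). The gaps that overlap the bithorax (blue) and Antennapedia (red) complexes take ranks 1 and 2, and a shorter Antennapedia gap of 96.7 kb in replicate 1 and 96.6 kb in replicate 2 lies further down.

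The complexes differed in their interior. The bithorax interval had regions only near its edges, none reaching further in than 5.59 kb in replicate 1, 5.71 kb in replicate 2 and 5.74 kb in the replicate set, and the sequence between them was empty in each list. The Antennapedia interval held 1 isolated region well inside it, which split the empty sequence into a gap of 96.7 kb in replicate 1 and 96.6 kb in replicate 2 on its left and the gap of 302 kb on its right. This region lay at 3R 2582706 to 2585802 in replicate 1, 2582748 to 2585804 in replicate 2 and 2582708 to 2585824 in the replicate-set list. Its starts in the replicates differed by 42 bp and its ends by 2 bp, against medians of 83 and 83 bp over the 1088 regions of 3R paired one-to-one.

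The isolated region scored above the median of 3R. It was 3.10 kb long with a score of 1.12 in replicate 1, 3.06 kb long with a score of 1.09 in replicate 2, and 3.12 kb long with a score of 1.09 in the replicate-set list. The score comes from the authors without a stated scale, and regions of 3R had median scores of 0.984, 0.974 and 0.858 in these lists. Among 3R regions within 20% of its length, 72.2% of 270 scored lower in replicate 1 and 67.4% of 270 in replicate 2. Its distance to the nearest other region, 96.7 and 96.6 kb, ranked 6 among 1364 regions of 3R in replicate 1 and 5 among 1331 in replicate 2, where the median region had a neighbour within 0.947 and 0.901 kb. No cause of its isolation was tested, and the gene at its position was not determined.

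The other regions of the intervals lay at the edges and scored below the median of 3R. At the start of the Antennapedia interval a region crossed the edge, 3R 2476617 to 2483219 in replicate 1 with a score of 0.721 and 2476930 to 2483318 in replicate 2 with a score of 0.749. It was 6.60 and 6.39 kb long, and among 3R regions within 20% of its length only 1.90% of 211 scored lower in replicate 1 and 5.00% of 220 in replicate 2. The next region inward, 3R 2483471 to 2485964 in replicate 1 and 2483629 to 2486177 in replicate 2, scored 0.553 and 0.674, above 10.4% and 41.4% of 3R regions of like length. Just outside the same edge, regions at 3R 2472668 to 2474299 and 2472538 to 2474220 scored 0.426 and 0.324. These 3 regions formed a small group between empty stretches, since the sequence to their left was free of regions over 188 kb in replicate 1 and 187 kb in replicate 2.

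**Figure D5:**
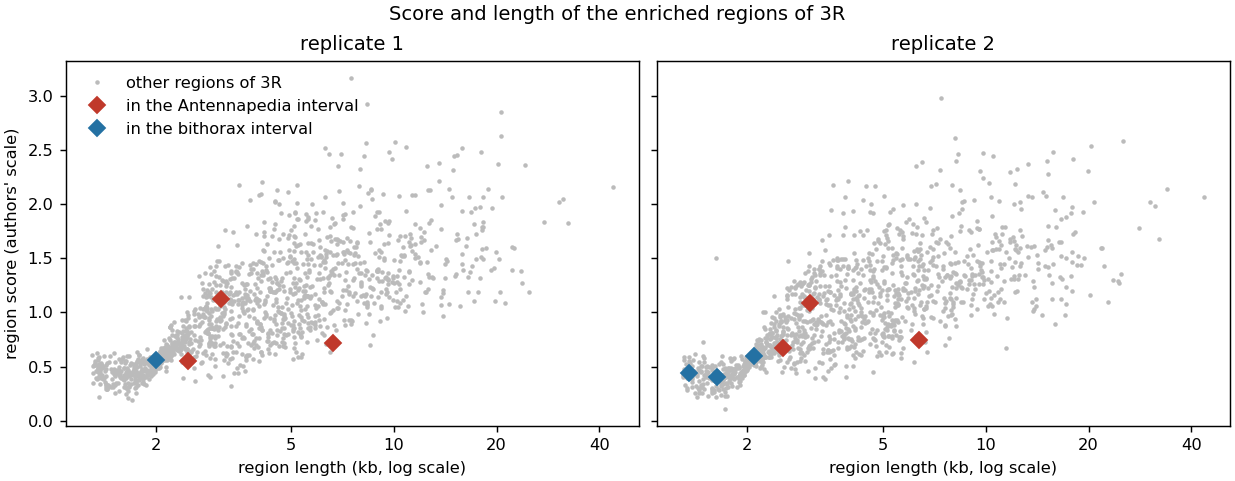
Score (authors' scale) against length (kb, log scale) of the enriched regions of 3R in replicate 1 (left) and replicate 2 (right), with those touching the Antennapedia (red) and bithorax (blue) intervals as diamonds. The isolated Antennapedia region is the highest red diamond at 1.12 and 1.09, the region across the edge lies at the bottom of the cloud at its length, and the bithorax regions are short with scores of 0.599 or less.

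At the start of the bithorax interval the replicate lists differed. Replicate 2 had a region across the edge, 3R 12478974 to 12480615, with a score of 0.399, and the replicate-set list had one at 12478931 to 12480649 with a score of 0.313. Replicate 1 had none, and its nearest region, 3R 12473688 to 12478452, ended 1.55 kb outside the edge with a score of 0.964. Near the other end, a region at 3R 12804413 to 12806415 in replicate 1 scored 0.561, and its counterpart at 12804291 to 12806386 in replicate 2 scored 0.599. For their length these scores were near the middle, above 53.9% and 62.0% of 3R regions within 20% of it. A region across that end, 3R 12808710 to 12810064 with a score of 0.440, was listed in replicate 2 and, at 12808643 to 12810135 with a score of 0.309, in the replicate-set list, but not in replicate 1. The 2 regions found in replicate 2 alone make up 1907 of the 2000 bp by which the replicates differed in this interval. Of the 3R regions of that list, 5.48% scored below the first of them and 9.24% below the second. Both were short, and among 3R regions within 20% of their length 35.5% of 200 and 59.1% of 93 scored lower. A region missing from replicate 1 may lie below the threshold of that list. The Jaccard index of the replicates, the length covered in both divided by that covered in either, was 0.944 in the Antennapedia interval and 0.490 in the bithorax interval, where it rests on 4.03 kb. It was 0.912 over 3R.

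Moving outward from the gaps, the flanks of the complexes were unlike. This description was chosen after the values were seen. Walking away from the 302 kb Antennapedia gap to the right, 9 regions in replicate 1 and 8 in replicate 2 scored no more than the median of 3R before the first region above it. They scored from 0.388 to 0.982 and from 0.300 to 0.948. The first region above the median was then 3R 2921073 to 2929029 in replicate 1 and 2921657 to 2929012 in replicate 2, with scores of 2.32 and 2.31, higher than 98.3% and 98.8% of 3R regions. To the left, the border of that gap is the isolated region itself, which scored above the median. A walk to the left that began instead beyond the isolated region, at the outer border of the shorter Antennapedia gap of 96.7 and 96.6 kb, passed 6 and 7 regions with scores up to 0.731 and 0.809. It crossed the empty stretch of 188 and 187 kb on its way and ended at 3R 2262273 to 2274756 and 2262331 to 2274647, which scored 2.35 and 2.32. At the borders of the other gaps of 100 kb or longer on 3R the median number of such regions was 1 in both replicates, over 92 borders in replicate 1 and 94 in replicate 2, and the highest was 8 and 6. The left walk started at a gap shorter than these, so its count is not set against them. In the replicate-set list the walk to the right passed 8 regions, against a median of 1 and a highest of 13 at the other borders. All these counts depend on how each list splits marked sequence. The regions starting at 3R 2888169, 2890348 and 2893015 in replicate 1 were a single region, 2888194 to 2895785, in replicate 2. Several regions of the walk to the right lay under 1 kb apart, and the walk was not repeated with such regions joined.

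At the bithorax complex the walk was shorter. It passed 3 regions on the left in replicate 1 and 1 in replicate 2, and 3 and 4 regions on the right. Of the other borders, 13.0% and 54.3% had walks as long as those on the left, and 13.0% and 7.45% as those on the right. The left counts turn partly on a region near the cut. At 3R 12473688 in replicate 1 it scored 0.964 against a median of 0.984, and at 12473409 in replicate 2 0.998 against 0.974. On the left it ended at a score of 1.37 in replicate 1 and 0.998 in replicate 2, and on the right at 1.05 and 0.984. The marked sequence began close to the interval, with 44.1% ± 2.2 (SD, n = 2) covered in the first 50 kb on the left and 38.6% ± 1.5 on the right. At the Antennapedia complex the first 50 kb were covered over 9.77% ± 0.37 (SD, n = 2) on the left and not at all on the right, in each list. On the right the next 50 kb were covered over 63.1% ± 2.3.

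The longest regions of the flanks differed in score. The longest and highest-scoring region of the right bithorax flank was 3R 12907292 to 12937778 in replicate 1, 30.5 kb with a score of 2.02, and 12907278 to 12937553 in replicate 2, 30.3 kb with a score of 2.02. The longest region of the left bithorax flank was 17.4 kb in replicate 1 (3R 12281416 to 12298854, score 1.72) and 15.3 kb in replicate 2 (12283656 to 12298907, score 1.80). The highest score of that flank in replicate 1 was 1.91, at 3R 12134538 to 12141720. In the right Antennapedia flank the longest region was 12.6 kb in replicate 1 (3R 3067956 to 3080559, score 1.22) and 12.4 kb in replicate 2 (3068107 to 3080553, score 1.31). For its length it scored low in both replicates, above 22.1% and 29.3% of 3R regions within 20% of it. In the replicate-set list the longest was a different region, 3R 2916160 to 2929047, 12.9 kb long. Its score of 1.82 was above 88.0% of 3R regions of like length. In the left Antennapedia flank the longest was the region at 3R 2262273 in replicate 1, 12.5 kb long, and 3R 2187294 to 2199903 in replicate 2, 12.6 kb long with a score of 1.60. Further long gaps followed on the outside. One of 217 kb in both replicates began at 3R 12981467 in replicate 1, to the right of the bithorax complex, and one of 203 kb at 3R 3094507, to the right of the Antennapedia complex.

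No region named as depleted lay on 3R in any list. The replicate 1 and replicate 2 lists each named 1 such region and the replicate-set list 7, all on other sequences, so the gaps of the Hox complexes are stretches that the authors called neither enriched nor depleted.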

How the data were processed

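The authors deposited 3 region lists, 1 for each of the 2 ChIP samples and 1 for both together. Alignment used Bowtie 0.12.7, per the submitters' processing notes. The genome is FlyBase release 5, per the file headers. The caller, its threshold and the merging of replicates were not given in the sources used here. Every region carries a score, deposited by the authors without a stated scale and used only to describe and rank regions within a list. Input samples entered only through the authors' lists. Depth is unknown, so no interval for read sampling is given.

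The intervals, genes and comparisons were chosen with earlier results of these data known. Covered share is the length of enriched regions inside an interval divided by the interval's length, and a region counted in an interval when at least 1 bp overlapped it. Means and SDs are over the lists of the 2 ChIP samples. Windows had the length of the interval, with starts every 10 kb. Regions named by position were those in the intervals, the nearest outside, the longest and highest-scoring of each flank, and the regions beside the longest gaps. Gene names came from a RefSeq table of release 6, and no coordinates were converted. No test was made, since the shares entered the choice of the intervals. Covered lengths were checked against bedtools 2.31.1 and on simulated data. Results were recomputed with regions under 1 kb apart joined, with the higher-scoring 50% of regions, with the replicate-set list, with edges moved inward by 10 kb, with other windows and without each replicate. Python 3.11.15, NumPy 2.4.6 and pandas 2.3.3 were used.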

Additional observations from a re-analysis of the deposited data

How the results depend on the processing

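The 10 results were recomputed under 64 alternatives. A value stayed within 1 SD of the replicates, or within 1.5 times for a count of regions, in 33 of them and moved further in 31. Of these 33, 18 drop 1 of the 2 replicates, where most values stay within 1 SD by construction. The SD rests on 2 lists and differs widely between results, so the split does not measure how stable they are. With the replicate-set list, the Antennapedia gap went from 302.38 to 302.26 kb and counted as moved, at an SD of 0.016 kb. The bithorax share went from 0.910% to 1.27% and counted as unmoved, at an SD of 0.43. Keeping the higher-scoring 50% of regions left 1 region and 0.879% in the Antennapedia interval and 0 regions and 0% in the bithorax interval. It lowered the flanks to 16.2% and 14.8%, and lengthened the longest gaps to 336 and 372 kb. Dropping regions cannot raise a share or shorten a gap. Moving the edges inward by 10 kb left 1 region and 0.932% in the Antennapedia interval and 0 regions and 0% in the bithorax interval, since the edge regions then lie outside. The flanks moved inward with the edges and were covered over 24.4% and 25.3%, against 23.5% and 25.7% in the main setting. Joining regions closer than 1 kb gave 2.61% for the Antennapedia interval, and 24.5% and 26.4% for the flanks. The replicate-set list gave 2.61% for the Antennapedia interval, 25.8% and 28.8% for the flanks and 302 kb for the Antennapedia gap. The share of windows covered no more than the Antennapedia complex was 0.0764% with the higher-scoring 50%, 0.0761% with edges moved inward, 0.0382% in the replicate-set list, 2.67% with windows end to end and 1.10% over the 5 large arms. For the bithorax complex it was 0.0762% in the main setting, 0% with edges moved inward and with windows end to end, and 0.336% over the 5 large arms. With the higher-scoring 50% it was 0.114%, and since the interval then held 0%, the windows counted were also without regions. The cause was not tested for the other settings. Without replicate 1 or replicate 2, there were 3 or 1 regions in the bithorax interval, and the share of windows covered no more than the bithorax complex was 0.0762% or 0%. No paired analysis was possible because the 2 ChIP samples are all of 1 group and inputs have no values of their own here. With depth unknown, a gap may hold marked sequence below the authors' threshold.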
